A study of Rattus norvegicus with 21 samples.

Results

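Agomelatine was compared with 3 other antidepressants as a pool, fluoxetine, imipramine and tianeptine, in the dentate gyrus of stressed rats. The comparison took the 3 animals titled as agomelatine-treated and the 9 titled as treated with 1 of the other drugs, with each drug given equal weight, which together hold 12 of the 21 arrays in the series. The other animals entered the fit only for its estimate of the spread. All 12 were male wild-type Wistar rats, 2 months old. Unpredictable chronic mild stress was applied for 6 weeks, a schedule of varied mild stressors used to model depression, and a drug was injected daily into the peritoneum in the last 2 weeks. Agomelatine was given at 40 mg/kg in 0.5% hydroxyethylcellulose, fluoxetine at 10 mg/kg in ultra-pure water, and imipramine and tianeptine at 10 mg/kg in 0.9% saline. Dose and vehicle therefore differed together with the drug, and the effects of the 3 cannot be told apart. Of the other animals, 3 were stressed without a drug and 3 were untreated controls, each of the latter run on 2 arrays.

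The dentate gyrus holds granule neurons, which send zinc-rich mossy fibres to field CA3, and it is 1 of the few adult brain regions where neurons are born. Agomelatine activates the melatonin receptors MT1 and MT2 and blocks the serotonin receptor 5-HT2C. Fluoxetine inhibits serotonin reuptake, imipramine inhibits reuptake of serotonin and noradrenaline, and tianeptine is an atypical tricyclic compound. The 3 pooled drugs thus do not share a mechanism, and agomelatine is the only one of the 4 known as a melatonin receptor agonist.

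The values were log2 expression values per gene on Affymetrix arrays, 1 value per animal, for 10804 genes at or above a log2 value of 7.165. Arrays have no read depth, and the number of animals limits the precision. The labels name the animals as biological replicates. The array medians over these genes ran from 9.21 to 9.33 with agomelatine and from 9.22 to 9.27 in the pool. The spread was widest with agomelatine, where the SD of the median gene was 0.114, against 0.0852 with fluoxetine, 0.0631 with imipramine and 0.0805 with tianeptine. Prox1, the transcription factor gene that defines granule neurons, was between 11.05 and 11.67 in all 12 animals and so well above the level for testing. The repeat arrays of the control animals differed from their first arrays along a shared direction across genes. The length of the mean difference was 13.4, the square root of its summed squares over the genes tested. Along that direction the agomelatine animals lay at 3.75, 6.48 and 6.59 and the pooled animals between -3.64 and 0.883, without overlap. Among the genes that passed the test below, 79.7% had the sign of that array difference, against 64.65% of all genes. The part of this array difference in the results was not tested beyond a fit with it as a covariate. That fit called 901 genes, of which 551 were among those that passed the test below, with the same sign.

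Relative to the pool, 982 genes rose (9.09%) and 1080 fell (10.0%) with agomelatine, 2062 in all (19.1% of the genes tested; limma, adjusted p under 0.05). Most differences were small. Their median size was 0.26 on the log2 scale, 1351 were under 0.3, and 7 reached 1, which is a doubling, all of them higher with agomelatine. In the median gene the difference was -0.0148. The 3 agomelatine animals all lay above the 9 pooled ones in 600 genes (5.55%) and all below them in 716 (6.63%), 12.2% in all, and 1193 of the called genes were among these. The pooled drugs did not differ detectably among themselves: limma's F test called 0 genes (0.00%), with a smallest adjusted p of 0.597 and 880 genes (8.145%) at an unadjusted p under 0.05. The 5 genes with the smallest p there were C3, Mphosph8, Nfkbia, Slc11a1 and Slc40a1. With 1 variance weight per array the F test called 109 genes.

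Taken drug by drug, 1273 genes differed between agomelatine and fluoxetine (11.8%), 1014 between agomelatine and imipramine (9.39%) and 1457 between agomelatine and tianeptine (13.5%). These 3 contrasts share the agomelatine animals and are not independent. All 2062 genes called against the pool had the same sign against each of the 3 drugs, 570 (5.28%) were called against each as well, 309 higher (2.86%) and 261 lower (2.42%), and 288 were called against none of the drugs singly. The mean of stressed animals without a drug lay inside the range of the pooled animals in 1821 of the called genes (88.3%, against 90.0% of all genes), and that of untreated controls in 1843 (89.4%, against 92.1%). The counts depended on single animals. Without agomelatine 1 the genes called against the pool numbered 1332 and those that rose 511. Without it the count was 649 against imipramine, 855 against tianeptine and 338 against every drug. Against imipramine it was 533, 453 and 522 without imipramine 1, 2 and 3, and the count against every drug was then 326, 331 and 357. Against tianeptine it was 736 without tianeptine 1 and 874 without tianeptine 2, and against fluoxetine 826 without fluoxetine 2. With 1 variance weight per group, which gives the agomelatine animals less weight, 810 genes were called against the pool. Of 164 genes examined singly, some of which had no call to lose, 60 lost their call. Lists are set below against the shares over all genes given above, and a share near these is no result about a list.

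**Figure D1:**
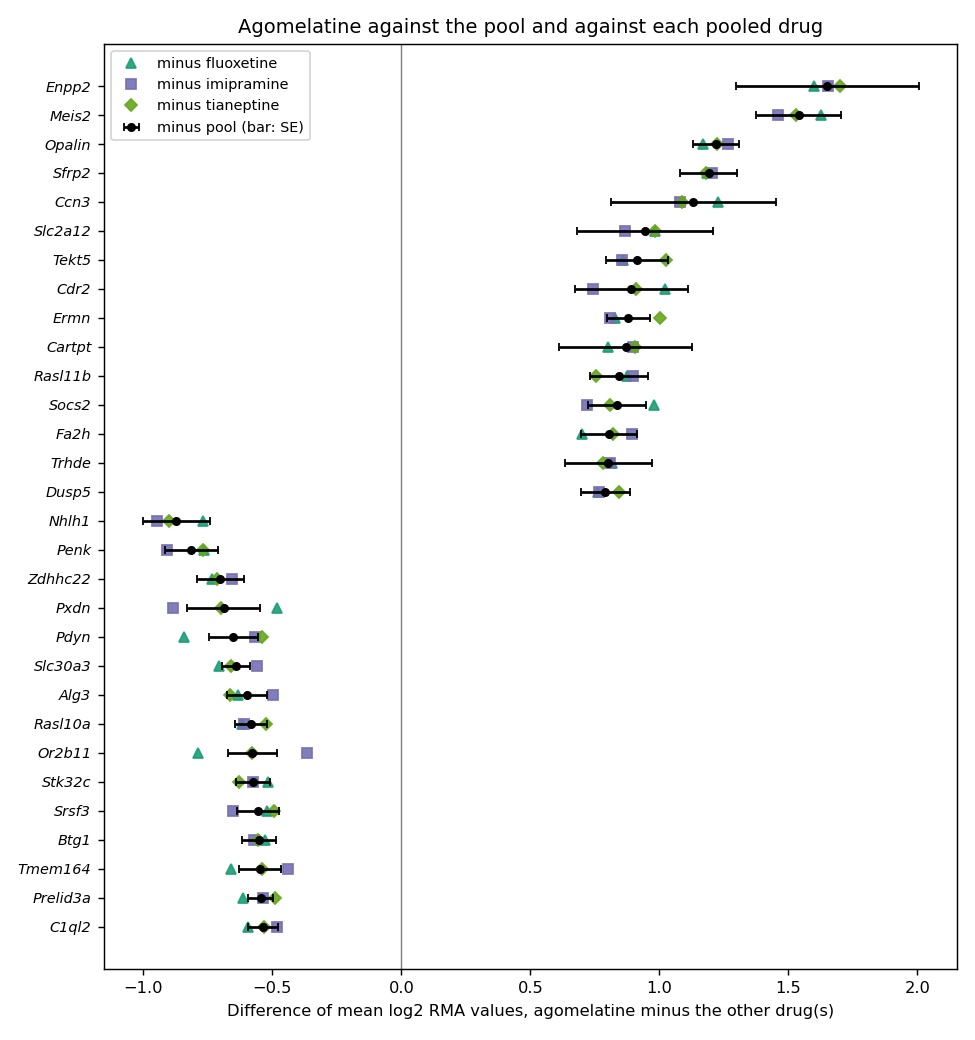
Difference of mean log2 values, agomelatine minus the other drugs, for the 15 highest and 15 lowest called genes whose animals did not overlap; black points with SE bars are against the pool, and triangles, squares and diamonds against fluoxetine, imipramine and tianeptine (3 animals each). The pool values run from 1.65 for Enpp2 to -0.87 for Nhlh1, and the choice of genes without overlap fixes that a gene's 3 drug-wise differences have 1 sign.

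Of the 15 genes that rose most without overlap, 4 were in the list of mature oligodendrocyte and myelin genes: Opalin, Enpp2, Ermn and Fa2h. For the 15 that rose and the 15 that fell, the choice fixes that all 3 agomelatine animals lie outside the pool. Opalin, which encodes a membrane protein of oligodendrocytes, was at 10.15, 9.63 and 9.96 in the 3 agomelatine animals, and its lowest, median and highest values in the pool were 8.55, 8.69 and 8.90. Every agomelatine animal was thus far above every pooled animal, a difference of 1.22 ± 0.09 (SE, adjusted p = 2.17e-07). Its promoter is shown because Opalin had the smallest adjusted p of these 30 genes, from 250 bases before to 50 after the start that RefSeq gives on assembly GRCr8, chr1:249858141-249858440, minus strand. The capitals mark the core motif bound by Sox transcription factors, ACAAT, searched on both strands and here read as its complement.
Opalin: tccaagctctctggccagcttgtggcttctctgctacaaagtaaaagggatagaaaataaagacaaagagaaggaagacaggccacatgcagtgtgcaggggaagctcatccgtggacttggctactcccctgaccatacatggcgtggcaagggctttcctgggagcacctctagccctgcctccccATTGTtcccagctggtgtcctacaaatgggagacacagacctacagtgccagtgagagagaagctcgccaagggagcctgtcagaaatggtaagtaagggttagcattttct
ACAAT was found in 33.1% of all 27457 promoters of this length in the RefSeq table, in 19.8% of those of the genes tested and in 18.6% of those of genes that rose. A match is a description of the letters and not a binding site. Sox10, the gene of the Sox factor that specifies oligodendrocytes, was at 9.67, 9.61 and 9.46 with agomelatine and at 9.31 to 9.45 in the pool, with a median of 9.35. It rose by 0.22 ± 0.06 (adjusted p = 0.0114), and the call ended without agomelatine 1 (0.17, adjusted p = 0.0842) and with 1 weight per group (adjusted p = 0.0693).

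Meis2, a homeobox transcription factor gene, was at 9.60, 9.41 and 8.60 with agomelatine and from 7.46 to 7.96 in the pool, with a median of 7.61. All 3 animals were above the pool, the third less so, and the gene rose by 1.54 ± 0.16 (adjusted p = 1.69e-05). Sfrp2, which encodes a secreted modulator of Wnt signals, was at 9.17, 9.10 and 9.55 against 7.85, 8.11 and 8.30 (lowest, median and highest) in the pool. It was high in all 3 animals to a like degree and rose by 1.19 ± 0.11 (adjusted p = 4.77e-06). Tekt5, a tektin gene of cytoskeletal filaments, was at 9.27, 9.001 and 8.92 against 7.81, 8.18 and 8.23, and rose by 0.91 ± 0.12. Rasl11b, a gene of a small GTPase of the Ras family, rose by 0.84 ± 0.11, and Socs2, an inhibitor of cytokine and growth hormone signalling, by 0.84 ± 0.11. Socs2 was at 8.72, 8.79 and 9.04 with agomelatine and at 7.83 to 8.28 in the pool. Trhde, the gene of the ectoenzyme that degrades thyrotropin-releasing hormone, rose by 0.80 ± 0.17 (adjusted p = 0.00327). For these genes the 3 differences from single drugs were alike, such as 1.63, 1.46 and 1.53 for Meis2 against fluoxetine, imipramine and tianeptine. In stress 3, a stressed animal without a drug, Meis2 was at 8.22, Tekt5 at 8.74, Rasl11b at 8.75 and Socs2 at 8.34. These values lay above the whole pool too, though below every agomelatine animal. Sfrp2 and Trhde were inside the pool in stress 3.

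For Enpp2, Slc2a12 and Cdr2, leaving out agomelatine 1 lowered the difference by over 1.5 times. Enpp2, the gene of autotaxin, which is made by both oligodendrocytes and choroid plexus epithelium, was at 13.31 in agomelatine 1, 10.62 and 10.68 in the others, and 9.83 to 9.99 in the pool. All 3 lay above the pool, but the difference of 1.65 ± 0.35 (adjusted p = 0.00355) was 0.77 without agomelatine 1. Slc2a12, a glucose transporter gene, was at 9.61, 7.53 and 7.71 against a highest pooled value of 7.45, and its difference of 0.94 was 0.28 without that animal. The values for Cdr2, which encodes a cytoplasmic neuronal antigen, were 10.29, 8.79 and 8.69 against 8.62 at most, and 0.89 became 0.37. For Ccn3 and Cartpt the 3 agomelatine animals were alike, and the difference moved little while the call ended in some fits. Ccn3, a matricellular protein gene, was at 9.58, 9.66 and 9.25 against 8.15 to 8.59 and rose by 1.13 ± 0.32 (adjusted p = 0.0188), with 1 stressed animal without a drug at 10.72. Its call ended without agomelatine 1 (1.09, adjusted p = 0.0675), without agomelatine 2 (1.05, adjusted p = 0.0664), and with 1 weight per group (adjusted p = 0.107) or per array (adjusted p = 0.0602). Cartpt, which encodes the CART neuropeptide, was at 9.23, 9.23 and 9.65 against 7.75 to 9.13 and rose by 0.87 ± 0.26 (adjusted p = 0.0237). That call ended without agomelatine 1 (0.94, adjusted p = 0.0506), without agomelatine 3 (0.73, adjusted p = 0.105), and with weights per group (adjusted p = 0.125) or per array (adjusted p = 0.144).

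The 15 genes that fell most without overlap included 2 opioid peptide precursors, a zinc transporter and a synaptic organiser. Penk, the precursor gene of enkephalins, was at 9.71, 10.21 and 9.85 with agomelatine, and its lowest, median and highest pooled values were 10.38, 10.78 and 10.94. Pdyn, the precursor gene of dynorphins, was at 9.57, 9.72 and 9.35 against 9.98, 10.20 and 10.44. Both opioid precursors were below the whole pool in each animal, and they fell by 0.81 ± 0.10 (adjusted p = 6.88e-05) and by 0.65 ± 0.10 (adjusted p = 0.000205). Slc30a3, which encodes the transporter that loads zinc into mossy fibre vesicles, was at 10.58, 10.66 and 10.72 against 11.16, 11.28 and 11.45. It fell by 0.64 ± 0.05 (adjusted p = 1.54e-06), with little spread among the agomelatine animals. C1ql2, a secreted organiser of mossy fibre synapses, was at 11.22, 11.16 and 11.27 against 11.55, 11.78 and 11.87, and fell by 0.54 ± 0.06 (adjusted p = 1.85e-05).

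Nhlh1, a gene of a helix-loop-helix transcription factor of neurons, fell furthest, by 0.87 ± 0.13 (adjusted p = 0.00022), with 9.24, 9.47 and 9.89 against 10.22 to 10.57 in the pool. Zdhhc22, a palmitoyltransferase gene, was at 9.40, 9.71 and 9.94 against 10.22 to 10.63 and fell by 0.70 ± 0.09. The remaining genes of this set fell by 0.55 to 0.69, with each agomelatine animal below the pool by the choice without overlap. They were Pxdn (a matrix peroxidase, 0.69), Alg3 (an N-glycan mannosyltransferase, 0.60), Rasl10a (a Ras-like GTPase, 0.58), the olfactory receptor gene Or2b11 (0.58), the kinase gene Stk32c (0.57), the splicing factor gene Srsf3 (0.56), the antiproliferative gene Btg1 (0.55), Tmem164 (0.55) and Prelid3a (0.55). For Alg3 the repeat arrays of the controls lay below the first ones by 0.46 and for Tmem164 by 0.51, values near their differences here; the part of the arrays was not tested for single genes.

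**Figure D2:**
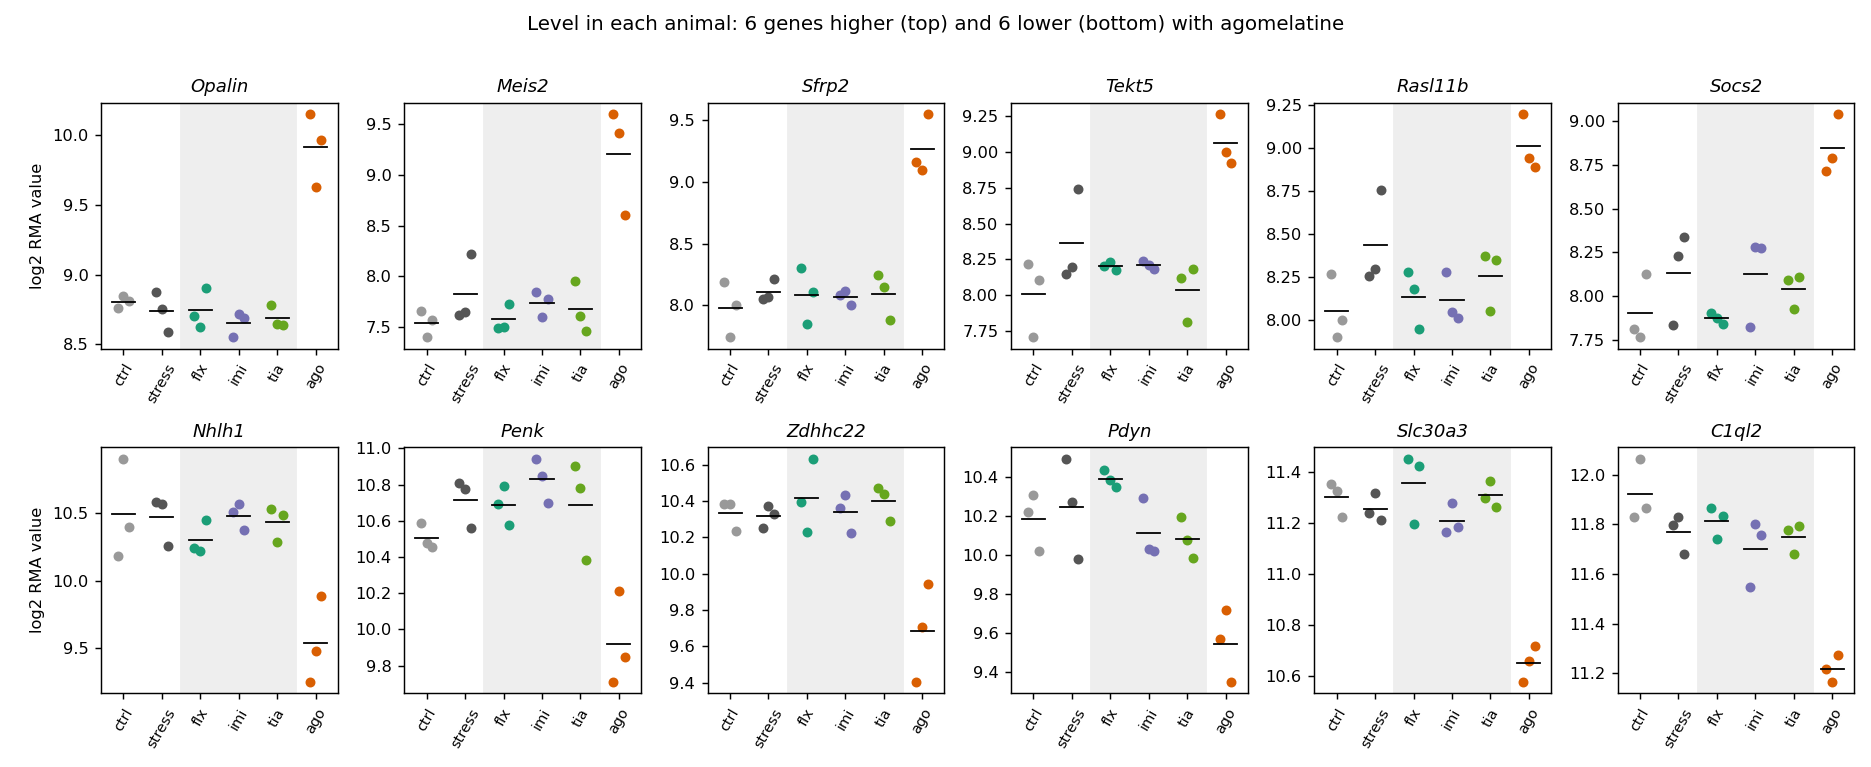
Log2 value in each animal for 6 genes that rose (top) and 6 that fell (bottom); the 6 columns of points are control, stress, fluoxetine, imipramine, tianeptine and agomelatine animals (3 each), bars are group means, and shading marks the pool. The choice of genes without overlap fixes that the agomelatine animals lie outside the range of the 9 pooled animals in all 12 panels. Examples are Opalin (9.63 at the lowest, against 8.90) and Slc30a3 (10.72 at the highest, against 11.16).

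Cell type markers moved with agomelatine. In whole tissue, fewer cells of a type and less RNA per cell cannot be told apart. Of 31 mature oligodendrocyte and myelin genes, 29 rose and none fell, with a median difference of 0.57, against 9.09% higher calls and a median of -0.0148 over all genes. Mbp, a main structural protein of myelin, was at 12.35, 12.05 and 12.11 with agomelatine, and its lowest, median and highest pooled values were 11.45, 11.61 and 11.69. All 3 animals were above the pool, and Mbp rose by 0.58 ± 0.07 (adjusted p = 2.66e-05). A second Mbp probe set, at a mean of 9.65, differed by 0.0017, so the 2 probe sets disagree. Mog, a surface glycoprotein of myelin, rose by 0.62 ± 0.07, the protease gene Klk6 by 0.66 ± 0.07, the cytoskeletal ermin gene Ermn by 0.88 ± 0.08 and Fa2h, which makes the hydroxylated lipids of myelin, by 0.80 ± 0.11. The list score, the mean over members of each value minus the mean of the gene over 18 animals, was 0.74, 0.30 and 0.33 with agomelatine and -0.18 to -0.04 in the pool. It was thus high in all 3 animals and highest in agomelatine 1, without which 23 members rose. With this score as a covariate 73 genes were called against the pool, 18 of them shared with the main fit. Of the genes called in the main fit, 256 changed sign. The score does not overlap between agomelatine and the pool, so it stands in part for the group. Of 13 precursor and lineage genes, 30.8% were called, against 19.1% over all genes, and 4 rose: Bcas1, a gene of newly myelinating cells, by 0.52 ± 0.08, Enpp6 by 0.37 ± 0.09, and Sox10 and the transcription factor gene Olig1 by 0.22 each. Without agomelatine 1 that count was 2, and the Olig1 call ended (0.12, adjusted p = 0.314), as it did without agomelatine 2, fluoxetine 2, imipramine 2 or 3 or tianeptine 2 (adjusted p = 0.0579 to 0.0657) and with weights per group or array. Enpp6 lost its call with weights per group (adjusted p = 0.0764) or array (adjusted p = 0.0934).

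Neuron markers split by field, with 81.8% of the granule neuron and 53.8% of the CA-field genes called, against 19.1% over all genes. Of 11 mature granule neuron genes, 8 fell and 1 rose (Spata13, whose call ended without agomelatine 1, adjusted p = 0.0591), with a median of -0.32. C1ql3, a relative of C1ql2, was at 11.60, 11.57 and 11.71 against 11.91 to 12.10 and fell by 0.40 ± 0.04 (adjusted p = 1.19e-05), and Calb1, the calcium buffer calbindin, fell by 0.36 ± 0.07. Prox1 was at 11.05, 11.26 and 11.49 against 11.53 to 11.67 and fell by 0.32 ± 0.07 (adjusted p = 0.00454), a call that ended without agomelatine 1 (-0.22, adjusted p = 0.055). The list score was -0.25, -0.26 and -0.13 with agomelatine and 0.01 to 0.11 in the pool. Of 13 genes of pyramidal neurons of the CA fields, which adjoin the dentate gyrus, 7 rose and none fell, with a median of 0.43. Man1a1 (a Golgi mannosidase) was at 8.46, 8.10 and 8.24 against 7.40 to 7.72 and rose by 0.74 ± 0.11 (adjusted p = 0.00018). Nectin3, a cell adhesion gene, rose by 0.47 ± 0.09 and Cpne4, a copine, by 0.43 ± 0.09. Wfs1, a marker of field CA1, was at 10.78, 11.10 and 9.93 against 9.66 to 10.03, so that agomelatine 3 lay inside the pool while the gene rose by 0.82 ± 0.17. The list score was 0.46, 0.44 and 0.06 against -0.15 to 0.02 in the pool. It was 0.41 in stress 3, a stressed animal without a drug, where Wfs1 was at 10.27. The largest difference in this list, 1.13, was that of Ccn3, described above, which was at 10.72 in stress 3. A score without Ccn3 was not computed, and agomelatine 3 lay only a little above the pool with it. In that list 4 members rose without agomelatine 1, or without agomelatine 2. With the CA-field score as a covariate 992 genes were called against the pool, 703 of them shared with the main fit.

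Choroid plexus and meningeal genes were highest in agomelatine 1 but varied in other animals too. Of the 2 lists, 25% and 18.2% of members were called, against 19.1% over all genes. Ttr, the transthyretin gene of choroid plexus epithelium, was at 14.01 in agomelatine 1, 7.58 and 7.29 in the other agomelatine animals and 6.94 to 8.09 in the pool. Its difference of 2.35 ± 1.00 (SE) did not pass (adjusted p = 0.11). The choroid plexus score was 2.75, -0.10 and -0.16 with agomelatine and -0.32 to -0.19 in the pool, so that all 3 agomelatine animals lay above it. This score includes Enpp2, which is also in the oligodendrocyte list and was itself above the pool in all 3 animals. A score without Enpp2 was not computed, so the position of agomelatine 2 and 3 cannot be credited to choroid plexus genes alone. In stress 1, a stressed animal without a drug, the choroid plexus score was 0.56, the meningeal score 0.63 and Ttr 11.77. Of the 8 choroid plexus members, 2 rose, Enpp2 and Tmem72 (0.79, and 0.19 with adjusted p = 0.241 without agomelatine 1). The number that rose was 1 without agomelatine 1, 7 without agomelatine 2 and 8 without agomelatine 3. The meningeal score was 1.02, 0.24 and -0.24 against -0.27 to 0.12, and of 11 members Dcn and Igf2 rose (1.06 and 0.94). None passed without agomelatine 1 and 6 rose without agomelatine 3. Dcn was at 11.15, 10.21 and 9.07 with agomelatine against 8.43 to 9.59, so that agomelatine 2 was above the pool as well. Its difference was 0.56 without agomelatine 1 and 1.59 without agomelatine 3, and that of Igf2 was 0.22 without agomelatine 1. The part of these tissues in the other results was not tested beyond values without agomelatine 1 and a fit with the choroid plexus score. That fit called 1250 genes, 1084 of them shared with the main fit.

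Among the other cell types, where 19.1% called is the share over all genes, 23.1% of the astrocyte, 7.14% of the microglia, 33.3% of the immature neuron and 31.2% of the interneuron genes were called. Of 13 astrocyte genes, 3 fell: Slc4a4, a bicarbonate transporter, by 0.23 ± 0.04, the neurotensin receptor gene Ntsr2 by 0.31 ± 0.07, and the water channel gene Aqp4 by 0.19 ± 0.06. The Aqp4 call ended without agomelatine 1 (-0.21, adjusted p = 0.0522), without agomelatine 3 (-0.12, adjusted p = 0.182), with weights per group or array, and after another quantile normalization. Gfap was at 11.54, 11.40 and 11.13 against 11.28 to 12.08 and did not pass. Of 14 microglia genes, Cx3cr1 fell by 0.34 ± 0.11 (adjusted p = 0.0334), but the 2 groups overlapped and the call ended without agomelatine 3 (-0.20, adjusted p = 0.229), imipramine 1 or 2 or tianeptine 1 (adjusted p = 0.053 to 0.0566). Of 15 genes of immature neurons and neurogenesis, 3 rose (Igfbpl1, Calb2 and Elavl4) and 2 fell (Hes5 and Neurod1), of which 1 was called without agomelatine 1. The calls of Igfbpl1, Elavl4 and Calb2 ended without agomelatine 1 (adjusted p = 0.0815 to 0.0949, with Igfbpl1 going from 0.37 to 0.17), those of Elavl4 and Calb2 without agomelatine 2 (adjusted p = 0.0847 and 0.146), and that of Calb2 without tianeptine 2 (adjusted p = 0.053). That of Hes5 ended without agomelatine 1 or 3, fluoxetine 2, imipramine 1 or tianeptine 1 (adjusted p = 0.0506 to 0.227), with a difference of -0.26, or -0.15 without agomelatine 3. Neurod1, a transcription factor of differentiating granule cells, was at 10.72, 10.76 and 10.96 against 11.06 to 11.44 and fell by 0.38 ± 0.07 (adjusted p = 0.000927). Dcx, the doublecortin gene of migrating young neurons, was at 9.70, 9.44 and 9.44 against 9.05 to 9.59, a difference of 0.29 ± 0.11 that did not pass (adjusted p = 0.0642) and passed with equal array medians (adjusted p = 0.0406). Of 16 interneuron and neuropeptide genes, 4 rose (Cck, Erbb4, Calb2 and Cnr1) and Cort fell. The Erbb4 call ended without agomelatine 1 (adjusted p = 0.0871), and the Cort call with no filter (adjusted p = 0.0503) and without agomelatine 1 or 3, fluoxetine 2 or 3, any imipramine animal or tianeptine 1 or 2 (adjusted p = 0.0529 to 0.294). Cort differed by -0.24, or by -0.38 without agomelatine 2. These included the cannabinoid receptor gene Cnr1 (0.33 ± 0.08), which is dense on interneurons that make cholecystokinin. The peptide gene itself, Cck, was at 11.13, 11.12 and 10.42 against 10.17 to 10.40 and rose by 0.63 ± 0.15. Its call ended without agomelatine 1 (0.51, adjusted p = 0.0622) or agomelatine 2 (0.52, adjusted p = 0.0518) and with 1 weight per group (adjusted p = 0.0509), and 1 member of this list rose without agomelatine 1.

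**Figure D3:**
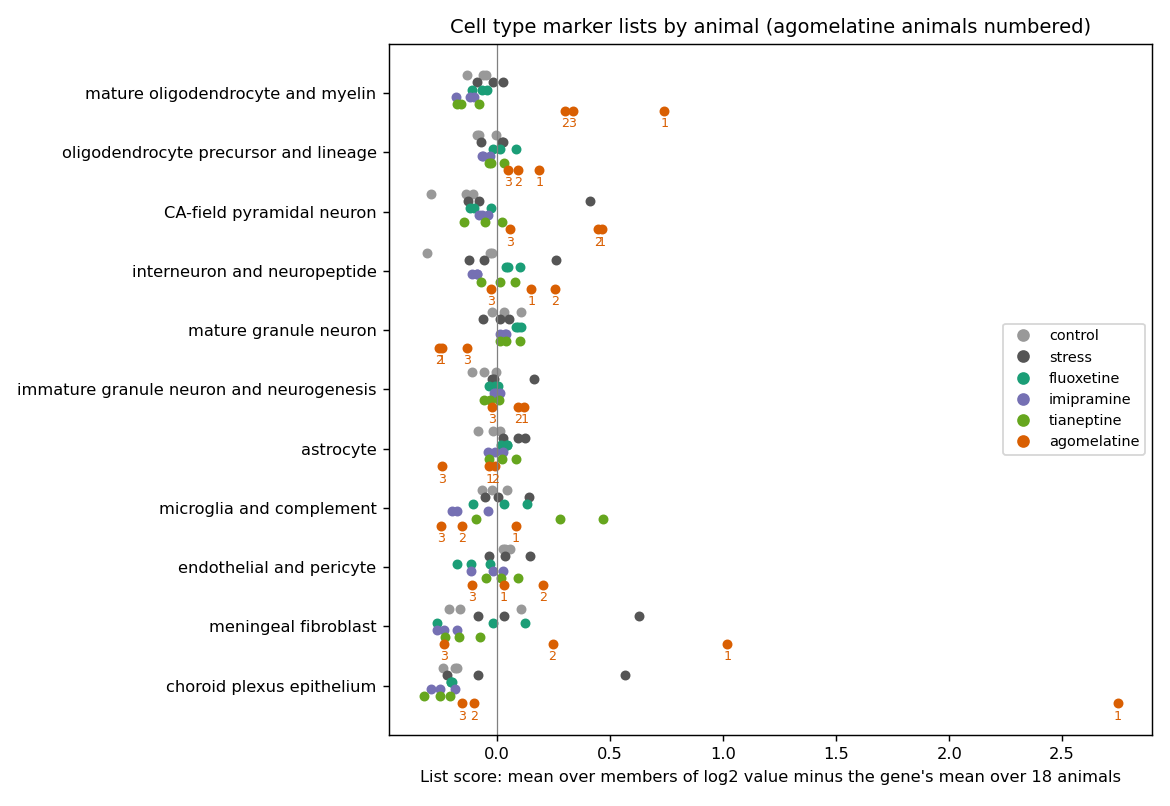
Score of each cell type list in each animal, in log2 units relative to the mean over 18 animals; points are animals, coloured by group, and agomelatine animals are numbered. The oligodendrocyte scores of all 3 agomelatine animals (0.30 to 0.74) lie above the pool and the granule neuron scores (-0.26 to -0.13) below it, while agomelatine 1 alone reaches 2.75 in the choroid plexus list.

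The direct targets of the drugs were looked at next. The melatonin receptor genes Mtnr1a and Mtnr1b lay below the level for testing. Of 12 serotonin receptor genes, 3 rose (Htr2c, Htr1b and Htr7) and 2 fell (Htr1a and Htr4), and without agomelatine 1 only 1 rose. The main fit called 41.7% of this list, against 19.1% of all genes. Htr1a, the inhibitory 5-HT1A receptor, was at 10.76, 10.84 and 11.22 with agomelatine, and its lowest, median and highest pooled values were 11.30, 11.33 and 11.45. Htr4, which encodes a receptor coupled to cyclic AMP production, was at 10.40, 10.36 and 10.42 against 10.47, 10.72 and 10.87. Both were below the pool in each animal and fell by 0.41 ± 0.08 (adjusted p = 0.00133) and by 0.32 ± 0.06 (adjusted p = 0.00185), and each was called against every drug. Htr2c, the receptor that agomelatine blocks, was at 11.86, 9.48 and 7.31 with agomelatine and 7.09 to 7.61 in the pool. The animals thus ran from far above the pool to inside it. The difference of 2.22 ± 0.60 passed (adjusted p = 0.0152), but not without agomelatine 1 (1.06, adjusted p = 0.161), and it was 3.33 without agomelatine 3. Stressed animals without a drug spanned 7.14 to 9.90 for this gene, and the gene is known to be abundant in choroid plexus. The highest of them, stress 3, had a choroid plexus score of -0.09 and a CA-field score of 0.41. Stress 1, with a choroid plexus score of 0.56, was at 7.93. The agomelatine animals had choroid plexus scores of 2.75, -0.10 and -0.16 and CA-field scores of 0.46, 0.44 and 0.06, in the same order as their Htr2c values. The part of these cells in the Htr2c result was not tested beyond the values without single animals. Htr1b, the 5-HT1B receptor of nerve terminals, was at 9.67, 9.50 and 8.78 against 8.41 to 8.83 and rose by 0.70 ± 0.17 (adjusted p = 0.00712), a call that ended without agomelatine 1 (0.53, adjusted p = 0.0675). For this gene agomelatine 3 lay inside the pool, and stress 3, without a drug, lay above the whole pool at 9.39. Htr7, outside the naming rule and chosen after its values were seen, was at 8.37, 8.48 and 8.32 against 7.96 to 8.25 and rose by 0.31 ± 0.09 (adjusted p = 0.0169). Its call ended without agomelatine 2 (0.26, adjusted p = 0.0717) and with weights per group or array.

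Of 14 genes of other monoamine receptors, transport and breakdown, 1 rose and 3 fell, 28.6% called against 19.1% over all genes. Maoa, the monoamine oxidase that degrades serotonin and noradrenaline, was at 10.54, 10.50 and 10.43 against 10.21 to 10.42 and rose by 0.16 ± 0.05. The adrenoceptor genes Adrb1 and Adra1a fell by 0.27 ± 0.06 and 0.25 ± 0.07, and Slc29a4, the plasma membrane monoamine transporter, by 0.39 ± 0.10. All 4 calls ended with 1 weight per group (adjusted p = 0.0566 to 0.106). Those of Maoa (0.13, adjusted p = 0.106) and Adra1a (-0.21, adjusted p = 0.114) also ended without agomelatine 1, and that of Slc29a4 (-0.32, adjusted p = 0.0649) without agomelatine 2. Of 18 circadian clock genes, 3 fell and none rose, with a median of -0.02, or 16.7% called against 19.1% over all genes and 10.0% for lower alone. They were the output regulators of the clock Tef (-0.26 ± 0.06), Dbp (-0.27 ± 0.07) and Nr1d1 (-0.28 ± 0.09, adjusted p = 0.0363). Dbp at 11.40, 11.18 and 11.31 overlapped with the pool at 11.34 to 11.83, and so did Nr1d1, while Tef did not. Without tianeptine in the pool neither Dbp (-0.19, adjusted p = 0.103) nor Nr1d1 (-0.17, adjusted p = 0.251) passed. All 3 ended with 1 weight per group, Tef ended without agomelatine 1 (-0.20, adjusted p = 0.0842) and Dbp without agomelatine 2 (-0.21, adjusted p = 0.0782). Nr1d1 ended without agomelatine 1 or 2, imipramine 2 or 3 or tianeptine 1 or 3 (adjusted p = 0.0579 to 0.116). Clock was at 10.77, 10.71 and 10.85 against 10.54 to 10.90, and Per1 at 9.64, 9.70 and 9.75 against 9.65 to 9.99, and neither passed. No label read here states the hour at which the animals were killed.

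Part of the activity-regulated genes, which neurons switch on within minutes to hours of firing, were higher with agomelatine: of 31 measured, 8 rose and 2 fell (Jun and Pim1), with a median of 0.03. The 32.3% called stands against 19.1% over all genes. Npas4, a transcription factor gene induced by calcium entry, was at 8.83, 8.58 and 8.81 with agomelatine, and its lowest, median and highest pooled values were 7.82, 8.09 and 8.42. It was above the pool in each animal and rose by 0.66 ± 0.10 (adjusted p = 0.000268). Nr4a1, an orphan nuclear receptor gene, was at 8.68, 8.82 and 8.81 against 8.03, 8.19 and 8.46 and rose by 0.55 ± 0.10 (adjusted p = 0.00135). Its relative Nr4a2 was at 10.58, 10.60 and 10.37 against 9.74 to 10.18 and rose by 0.55 ± 0.11. Dusp5, which inactivates the kinase ERK in the nucleus, was at 8.72, 9.20 and 9.15 against 7.97, 8.26 and 8.36, so that it too was high in every animal, and it rose by 0.79 ± 0.10 (adjusted p = 5.37e-05). The promoters of Nr4a1 and Dusp5 are shown as those of members that rose without overlap and hold the motif searched, the half-site TGACG to which the cyclic AMP-responsive factor CREB binds. They are 5′ to 3′ on the gene's strand, from RefSeq on GRCr8, chr7:134259888-134260187 and chr1:262543524-262543823, both plus strand. Capitals mark the half-site on either strand, which is read as CGTCA on the printed one.
Nr4a1: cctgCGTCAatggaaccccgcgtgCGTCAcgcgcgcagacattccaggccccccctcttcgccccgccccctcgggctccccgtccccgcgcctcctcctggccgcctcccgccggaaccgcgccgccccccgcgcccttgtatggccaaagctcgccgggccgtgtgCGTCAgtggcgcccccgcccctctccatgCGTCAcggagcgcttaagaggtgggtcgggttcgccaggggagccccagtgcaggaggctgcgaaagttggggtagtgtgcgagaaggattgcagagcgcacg
Dusp5: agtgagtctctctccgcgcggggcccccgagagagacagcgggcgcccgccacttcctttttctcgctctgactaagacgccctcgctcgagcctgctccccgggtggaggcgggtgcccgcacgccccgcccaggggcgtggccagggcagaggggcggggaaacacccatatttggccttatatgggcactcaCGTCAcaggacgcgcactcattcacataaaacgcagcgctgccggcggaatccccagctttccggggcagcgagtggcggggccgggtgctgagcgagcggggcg
The window of Nr4a1 held 4 half-sites and that of Dusp5 held 1. A half-site was found in 12 of the 25 activity-regulated promoters in the table (48.0%), in 22.0% of all promoters, in 30.6% of those of genes tested, in 32.1% of those of genes that rose and in 27.8% of those of genes that fell. The full palindrome TGACGTCA, which contains the half-site on both strands, was in 1 activity-regulated promoter and in 2.94% of those of genes tested.

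Other immediate-early genes were less clear or did not pass. Arc, the cytoskeletal effector gene of synaptic plasticity, was at 9.55, 9.91 and 9.33 against 8.98 to 9.48 and rose by 0.37 ± 0.12 (adjusted p = 0.0341). Its call ended without any of agomelatine 1 (0.39), agomelatine 2 (0.21), fluoxetine 1 (0.35) or 2 (0.33), imipramine 1 (0.33) or tianeptine 2 (0.35), with adjusted p from 0.0516 to 0.237. Dusp1 (0.33 ± 0.09) ended without agomelatine 1 (0.33, adjusted p = 0.0534) or 2 (0.22, adjusted p = 0.128), and Dusp6 (0.34 ± 0.10) without agomelatine 1 (0.33, adjusted p = 0.0703) or 2 (0.30, adjusted p = 0.0762). The Jun call ended without agomelatine 2 (adjusted p = 0.0612) or 3 (adjusted p = 0.053), and the Pim1 call without agomelatine 1 (adjusted p = 0.0746) or 3 (adjusted p = 0.179, with -0.19 going to -0.12). Both MAP kinase phosphatase calls ended with 1 weight per group as well. The list had 4 members that rose without agomelatine 1 and 5 without agomelatine 2. Egr1 was at 10.43, 10.52 and 10.58 against 10.26 to 10.68, and Bdnf, the neurotrophin gene, at 8.76, 8.74 and 8.92 against 8.66 to 9.20, and neither passed (adjusted p = 0.624 and 0.382). Fos was at 8.08, 7.98 and 7.90 against 7.70 to 7.93. Its difference of 0.19 did not pass (adjusted p = 0.0765) but passed with equal array medians (adjusted p = 0.0464). Stressed animals without a drug overlapped the agomelatine animals for Nr4a1 (8.39 to 8.96), Npas4 (8.32 to 8.71) and Arc (9.39 to 9.78), and untreated controls were at 8.09 to 8.22, 8.21 to 8.46 and 9.19 to 9.25. For Dusp5 both groups were low (8.07 to 8.40 and 8.24 to 8.34).

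**Figure D4:**
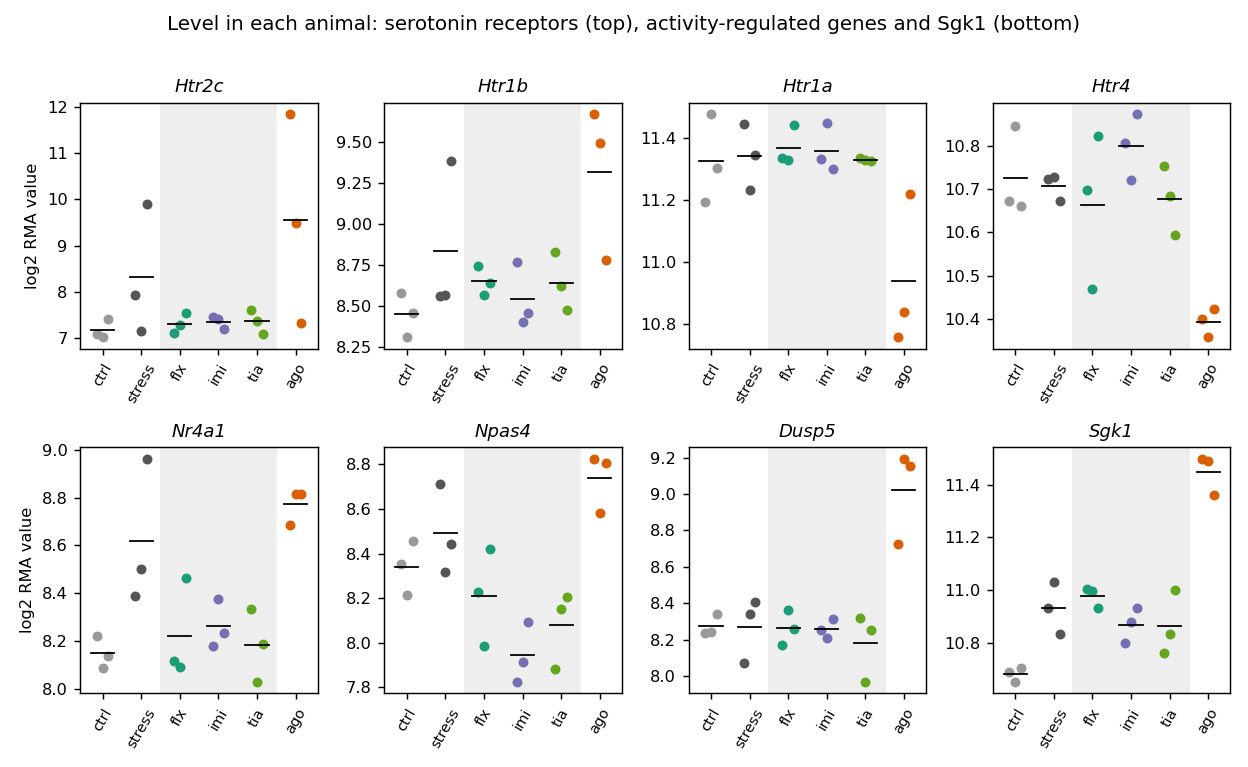
Log2 value in each animal for 4 serotonin receptor genes (top) and for 3 activity-regulated genes and Sgk1 (bottom), with group means as bars and the pool shaded. Htr1a and Htr4 lie below the pool and Nr4a1, Npas4, Dusp5 and Sgk1 above it in all 3 agomelatine animals, whereas Htr2c runs from 7.31 to 11.86.

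Genes that respond to glucocorticoids, the stress hormones, went both ways: of 20, 5 rose (Sgk1, Cdkn1a, Pdk4, Dusp1 and Nfkbia) and 5 fell (Mt1, Hif3a, Arrdc2, Mt2A and Zbtb16), with a median of 0.03. The 50% called stands against 19.1% over all genes. The number that fell was 2 without agomelatine 1 or 3, imipramine 3 or tianeptine 1, and 3 without imipramine 1 or tianeptine 3. Calls that ended without agomelatine 1 were those of Cdkn1a, Arrdc2, Hif3a and Mt2A (adjusted p = 0.0789 to 0.206), with the difference of Cdkn1a going from 0.46 to 0.25. Without agomelatine 3, Hif3a, Mt2A and Zbtb16 ended (adjusted p = 0.0896 to 0.206), with Zbtb16 going from -0.23 to -0.14. Among the pooled animals, Hif3a ended without fluoxetine 2 or 3, imipramine 1 or 3 or tianeptine 1 or 3, Mt2A without imipramine 2 or 3 or tianeptine 1 or 3, and Zbtb16 without imipramine 1 or 3 or tianeptine 1 (adjusted p = 0.0505 to 0.0667). Mt2A also ended over all probe sets (adjusted p = 0.0529) and without the trend (adjusted p = 0.0575). Sgk1, a kinase gene induced by glucocorticoids, was at 11.50, 11.49 and 11.36 against 10.76, 10.93 and 11.004 (lowest, median and highest) in the pool. It was above the pool, and above all stressed (10.83 to 11.03) and control animals (10.65 to 10.70), and rose by 0.55 ± 0.05 (adjusted p = 8.08e-06). Pdk4, a kinase that limits glucose oxidation, rose by 0.38 ± 0.08. Nfkbia, the NF-kB inhibitor gene, rose by 0.26 ± 0.06, but did not pass with fluoxetine left out of the pool (0.17, adjusted p = 0.0787). Mt1, a metallothionein gene that binds zinc and copper, was at 10.67, 10.67 and 10.57 against 10.88, 11.10 and 11.43 and fell by 0.52 ± 0.06 (adjusted p = 4.81e-05). Fkbp5, a sensitive target of the glucocorticoid receptor, was at 9.85, 9.75 and 9.65 against 9.49 to 10.21 and did not pass (adjusted p = 0.278). Among 13 genes of corticosteroid receptors, chaperones, CRH, oxytocin and vasopressin, 2 rose and 2 fell, and without agomelatine 1 none fell. The main fit called 30.8% of this list, against 19.1% of all genes. Crhbp, which encodes the protein that sequesters corticotropin-releasing hormone, was at 8.27, 8.22 and 8.03 against 7.38, 7.69 and 7.92 and rose by 0.49 ± 0.09 (adjusted p = 0.00106). The chaperone gene Hsp90aa1 rose by 0.28 ± 0.05. Oxt and Avpr1b, the genes of oxytocin and a vasopressin receptor, fell by 0.25 ± 0.07 and 0.27 ± 0.08 with overlap between the groups. Both calls ended without agomelatine 1 (adjusted p = 0.114 and 0.0721), without agomelatine 3 (adjusted p = 0.116 and 0.131) and with weights per group or array. The mineralocorticoid receptor gene Nr3c2 was at 11.69, 11.71 and 11.76 against 11.55 to 11.81 and did not pass (adjusted p = 0.384).

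Growth factor genes and their receptors had 6 members of 26 that rose and 3 that fell (Ntf3, Hbegf and Ntrk3), and 2 and 1 without agomelatine 1. The main fit called 34.6% of this list, against 19.1% of all genes. Fgfr2, a fibroblast growth factor receptor, was at 11.10, 10.76 and 10.59 against 10.34 to 10.56 and rose by 0.39 ± 0.07, or 0.25 without agomelatine 1. The neurotrophin gene Ntf3 was at 9.53, 9.45 and 9.82 against 9.72 to 10.23 and fell by 0.41 ± 0.10 (adjusted p = 0.0071), with agomelatine 3 inside the pool. Its call ended with 1 weight per group (adjusted p = 0.0539). The Hbegf call ended without agomelatine 1 (adjusted p = 0.0521), and that of Ntrk3 without agomelatine 1 or 2, imipramine 1 or 3 or tianeptine 1 (adjusted p = 0.0505 to 0.155) and without the trend (adjusted p = 0.0585).

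Synaptic lists had called shares near the 19.1% over all genes: 15.4% for glutamate, 23.5% for GABA, 19.2% for presynaptic and 21.7% for postsynaptic genes. Of 26 glutamate receptor and transporter genes, 4 fell (Slc1a1, Grin2b, Gria1 and Grik3) and none rose, including the neuronal transporter gene Slc1a1 (-0.26 ± 0.04) and the NMDA receptor subunit gene Grin2b (-0.16 ± 0.04), both below the pool in each animal. The Gria1 call ended without agomelatine 1 (adjusted p = 0.0554) or 3 (adjusted p = 0.0598). That of Grik3 ended without agomelatine 1 or 3, any imipramine animal or tianeptine 1 or 3 (adjusted p = 0.0546 to 0.159) and over all probe sets (adjusted p = 0.0527). Among 17 GABA genes 2 rose (Gabra5 and Gabrg1) and 2 fell (Gabra4 and Gabrd), and 1 was called without agomelatine 1. Gabrg1 lost its call without agomelatine 1 or 2, fluoxetine 2 or 3, imipramine 1 or 2 or tianeptine 2 or 3 (adjusted p = 0.054 to 0.209), and with no filter, all probe sets or no trend (adjusted p = 0.0542 to 0.0574). Gabra4 lost it without agomelatine 1 (adjusted p = 0.0796) or 2 (adjusted p = 0.132), and Gabrd, at -0.19, without agomelatine 1 (-0.12, adjusted p = 0.191). Gabra5, the subunit of hippocampal GABA receptors outside synapses, was at 12.59, 12.58 and 12.43 against 11.99, 12.12 and 12.20 (lowest, median and highest) and rose by 0.42 ± 0.08 (adjusted p = 0.00142). Of 26 presynaptic genes, 5 rose (Sv2b, Syt2, Pclo, Rims1 and Syt1), among them the vesicle genes Syt1 (0.14 ± 0.03) and Sv2b (0.65 ± 0.15), whose calls ended with 1 weight per group (adjusted p = 0.0552 and 0.0616). Syt2 ended without agomelatine 2 (adjusted p = 0.0635), Pclo without agomelatine 3 (adjusted p = 0.063), and Rims1 without agomelatine 1 or 3, imipramine 1 or 3 or tianeptine 2 (adjusted p = 0.0509 to 0.132) and without the trend (adjusted p = 0.0503). Among 23 postsynaptic density genes Homer2, a scaffold gene, rose by 0.35 ± 0.06, and Baiap2, an actin regulator of spines, fell by 0.24 ± 0.05, among 2 that rose (with Homer1) and 3 that fell (with Nlgn3 and Dlg3). Homer1 ended without agomelatine 1 (adjusted p = 0.146), Dlg3 without agomelatine 1 (adjusted p = 0.121) or 2 (adjusted p = 0.0669), and Nlgn3 without any 1 agomelatine animal, imipramine 2 or tianeptine 3 (adjusted p = 0.05 to 0.109) and without the trend (adjusted p = 0.0511). Of 32 potassium channel genes, 7 fell and 2 rose (Kcnq5 and Kcnma1), with a median of -0.04, against 10.0% and 9.09% over all genes. Kcnk1, a two-pore leak channel, was at 11.55, 11.38 and 11.44 against 11.73, 11.85 and 12.17 and fell by 0.47 ± 0.08 (adjusted p = 0.000882). The inward rectifier gene Kcnj2 fell by 0.41 ± 0.09 and the voltage-gated Kcna3 by 0.35 ± 0.06, each below the pool in all 3 animals. Kcnq5, a channel of the M current, was at 11.17, 11.41 and 11.08 against 10.73 to 11.03 and rose by 0.34 ± 0.07. Without agomelatine 1, 5 potassium channel genes fell and 2 rose.

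Of 28 genes of cyclic AMP signalling, into which the serotonin and melatonin receptors feed, 8 fell and 4 rose (Pde4b, Adcy3, Crem and Pde4d). The 42.9% called stands against 19.1% over all genes. Adcy1, a calcium-stimulated adenylyl cyclase of granule neurons, was at 12.45, 12.43 and 12.58 against 12.74, 12.85 and 12.95 (lowest, median and highest) in the pool. It fell by 0.38 ± 0.05 (adjusted p = 9.98e-05), below the pool in each animal, and Adcy2 fell by 0.24 ± 0.04. Of the enzymes that break down cyclic nucleotides, Pde1b fell by 0.34 ± 0.06 and Pde4b was at 9.87, 9.70 and 9.79 against 9.40 to 9.53 and rose by 0.31 ± 0.05 (adjusted p = 0.000438). Without agomelatine 1 the list had 5 members that fell and 1 that rose. Adcy3, Crem and Pde4d ended then (adjusted p = 0.108 to 0.227), with Crem going from 0.26 to 0.14, and Adcy3 and Pde4d also without agomelatine 2 (adjusted p = 0.0554 and 0.0665). The granule neuron score moved with these genes (-0.25, -0.26 and -0.13 against 0.01 to 0.11), and its part in them was not tested.

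Cholesterol genes were called more often than the 19.1% over all genes (42.1%), whereas oxidative phosphorylation genes were near it (20.6%) and ribosomal protein genes were at 28.4%. Of 19 genes of cholesterol synthesis and uptake, a pathway in heavy use in myelinating cells, 8 rose and none fell, with a median of 0.12. Insig1, the sterol sensor that holds back the pathway, was at 11.38, 11.31 and 11.14 against 10.54, 10.85 and 10.96 and rose by 0.44 ± 0.08 (adjusted p = 0.000892), with 0.26 for a second probe set. Without agomelatine 1 the count was 1 and without agomelatine 2 it was 4. The oligodendrocyte score moved with these genes, and its part in them was not tested. Of 63 oxidative phosphorylation genes, 9 rose and 4 fell, and of 67 cytosolic ribosomal protein genes, 13 rose and 6 fell, the 2 lists having medians of 0.06 and 0.02. Rpl39 was at 12.66, 12.55 and 12.51 against 11.77, 11.93 and 11.98 and rose by 0.68 ± 0.05 (adjusted p = 1.69e-07). The repeat arrays of the controls were higher for Rpl39 as well, by 0.73 on average, a shift of the size of its difference here. Among the complex I and ATP synthase genes Ndufs5 rose by 0.47 (0.33 between control arrays), Atp5mg by 0.42 (0.48) and Ndufa6 by 0.44 (0.27), whereas Ndufa5 rose by 0.40 with 0.02 between the control arrays. Rpl41 rose by 0.48 (0.23), with 0.29 and 0.30 for its other probe sets, and Rps2 and Rpl28 fell by 0.26 and 0.27 (-0.09 and -0.17). The part of the array difference in these genes was not tested. Without agomelatine 1, 5 oxidative phosphorylation and 6 ribosomal genes rose and 6 of each fell. Without fluoxetine 3, 7 and 13 fell, and without agomelatine 2, 3 ribosomal genes fell.

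The other lists were called at shares near or below the 19.1% over all genes: 22.9% of ubiquitin-specific protease, 18.8% of zinc, 17.6% of perineuronal net, 17.6% of endothelial, 14.1% of olfactory receptor, 12.0% of heat shock and 11.1% of inflammation genes. Of 35 ubiquitin-specific protease genes, 5 fell and 3 rose (Usp21 at -0.29 ± 0.06 and Usp25 at 0.29 ± 0.06). Of 25 heat shock and unfolded protein response genes, 2 rose (Pdia6 and Hsp90b1) and Xbp1 fell. The first 2 calls ended without agomelatine 1 (adjusted p = 0.0835 and 0.0529) and that of Xbp1 without agomelatine 3 (adjusted p = 0.0729). In the list of 18 inflammation and interferon genes Socs2 and Nfkbia rose and none fell. Of 17 perineuronal net and matrix genes, 3 rose (Adamts4, Adamts1 and Hapln2), among them Adamts4, a proteoglycan-cleaving enzyme that oligodendrocytes make, with 8.56, 8.32 and 8.41 against 7.79, 7.96 and 8.04 (0.50 ± 0.07). Adamts1, at 0.42, and Hapln2 ended without agomelatine 1 (0.26 and 0.29, adjusted p = 0.137 and 0.074). Of 16 zinc transport and metallothionein genes, 3 fell (Slc30a3, Mt1 and Mt2A). Of 17 endothelial and pericyte genes, 2 rose (Slc16a1 and Abcc9) and Slc2a1 fell. All 3 ended without agomelatine 3 (adjusted p = 0.0591 to 0.103), Slc16a1 also without agomelatine 1 (adjusted p = 0.0759) and Abcc9 without agomelatine 2 (adjusted p = 0.137). A second Abcc9 probe set differed by -0.05, in the other direction. The 64 olfactory receptor genes kept as a comparison of dim probe sets had 9 that fell and none that rose, and a median of -0.16. In that list, 4 members fell without agomelatine 1, 19 without agomelatine 2 and 14 without tianeptine 3. In most lists with 5 or fewer calls in a direction, that count moved by over 1.5 times when 1 agomelatine animal was left out, as for the ubiquitin-specific proteases, where 1 rose without agomelatine 1 or 3 or fluoxetine 2 and 2 fell without agomelatine 2.

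**Figure D5:**
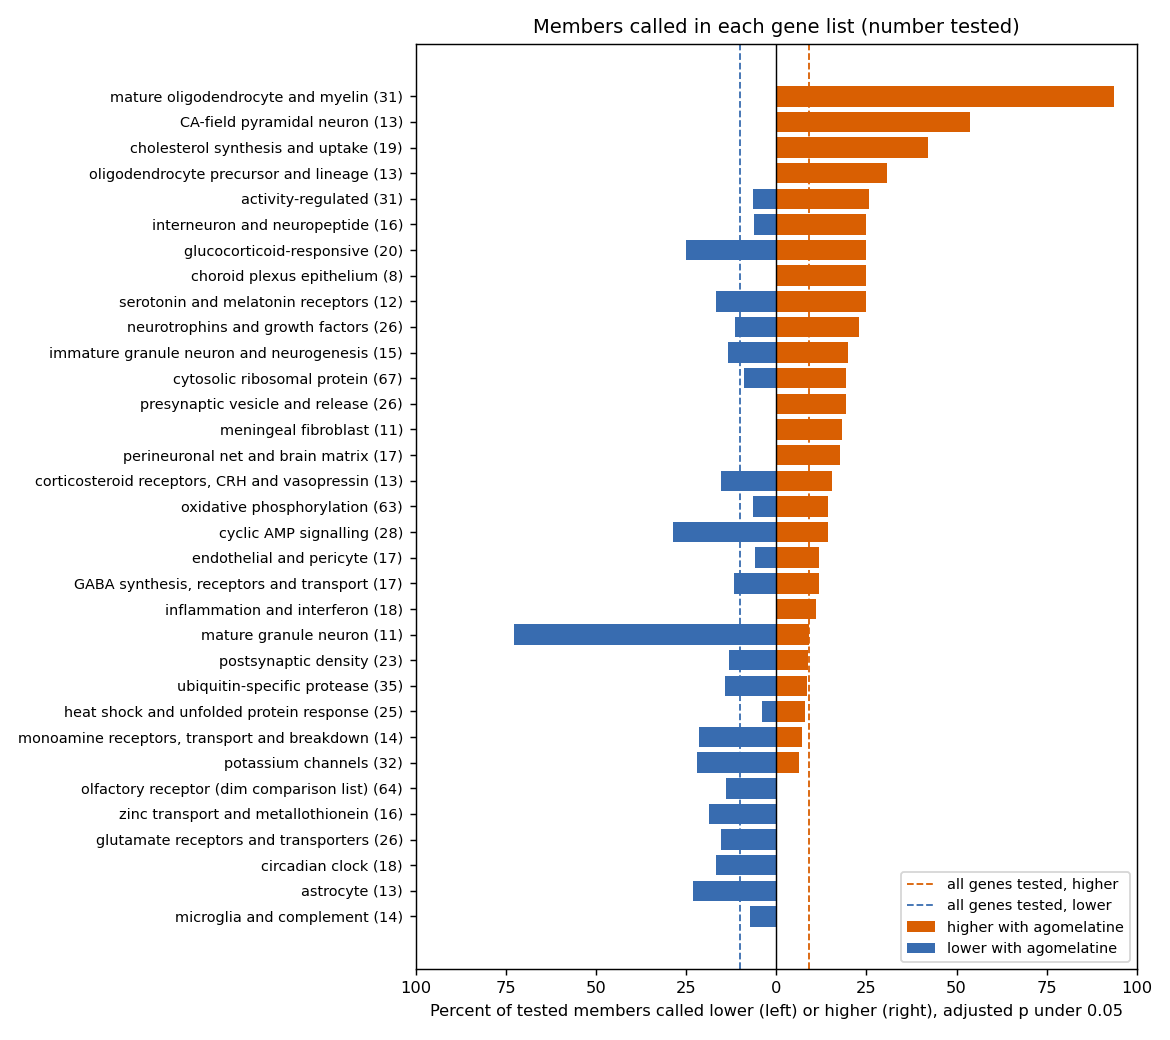
Percent of tested members of each gene list that were called higher (right) or lower (left) with agomelatine against the pool, with the number tested in brackets; dashed lines are the shares over all genes tested, 9.09% higher and 10.0% lower. The oligodendrocyte and CA-field lists reach furthest to the right (29 of 31 and 7 of 13 members) and the granule neuron list furthest to the left (8 of 11).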

How the data were processed

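RNA was extracted with RNeasy columns and a DNase step and biotin-labelled, per the labels' protocols. The deposited values are on a log2 scale, and the submitters' processing notes name RMA and the software Affymetrix Expression Console 1.2 as what the authors used to make them. RMA fits each array to a common distribution, so a shift of all genes in 1 animal would be removed. Of 29214 probe sets, 15310 had 1 gene symbol in the platform annotation, 323 had several and 13581 had none there, and 15279 were matched to RefSeq (GRCr8) by gene number. The brightest probe set was kept per gene, and the 10804 genes with a mean at or above 7.165, the 25th percentile of named probe sets, were tested. Values identical to those of a second probe set occurred for 16 of these genes, which are not discussed. The sources used here do not give a genome build for the array annotation.

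limma 3.58.1 (R 4.3.3) fitted 1 mean per group over 18 animals, 12 residual degrees of freedom, with the 2 arrays of a control animal averaged. Agomelatine was contrasted with the equally weighted mean of the 3 drugs, with a mean-variance trend, and p-values were Benjamini-Hochberg adjusted over all genes, called at adjusted p under 0.05. P-values are from this fit, or from the alternative fit named beside them. Those for differences are two-sided and set the difference against the spread between animals of a group. The steps were run on simulated data with independent noise and the same spread per gene in all groups. That run does not cover the wider spread seen with agomelatine. Genes were picked for naming as the 15 highest and 15 lowest called genes without overlap, up to 4 called members per list by smallest p, a fixed panel and the 5 genes with the smallest F-test p. Not all of those picked are described above, and called list members such as Stard4, Erbb3 and Usp13 were left out. Of the panel genes left out, Bmal1 (0.0057), Nr3c1 (-0.0061) and Ntrk2 (0.021) did not pass (adjusted p = 0.955, 0.951 and 0.783). Members of lists with 5 or fewer calls are named as well, and those beyond the rule (such as Htr7 and Dusp6) were chosen after their values were seen. The comparison and the lists were chosen with earlier results of these data known. Alternatives covered filters, probe sets, normalization, weights, thresholds, the animals fitted, a replicate block, leaving out each animal or drug and, chosen after seeing the data, 4 covariates.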

Additional observations from a re-analysis of the deposited data

Results flagged for a closer look

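For 18 of the 164 genes examined singly, 1 of the 9 pooled animals was separated from the nearest of the others by a larger share of the whole range than Dixon's test allows for 9 samples. Chance alone gives about 1 in 20 such gaps per group tested. The values are log2 values, and no cause was tested.

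Low values in tianeptine 2 were seen for Tekt5 (7.810, the next 8.12), Dusp5 (7.966, the next 8.17) and Ndufa5 (10.385, the next 10.55). Fluoxetine 2 was low for Btg1 (11.001, the next 11.1) and Pdk4 (7.520, the next 7.7) and high for Pim1 (8.753, the next 8.64). Fluoxetine 3 was high for Neurod1 (11.435, the next 11.25), Wfs1 (10.034, the next 9.83), Grik3 (9.872, the next 9.56) and Nlgn3 (11.718, the next 11.57) and low for Sv2b (11.319, the next 11.66) and Homer1 (9.090, the next 9.44). Imipramine 1 was low for Ntsr2 (10.079, the next 10.2), imipramine 2 was high for Ttr (8.090, the next 7.52) and imipramine 3 was low for Ndufs5 (10.949, the next 11.08). Tianeptine 1 was high for Homer2 (8.726, the next 8.6) and Abcc9 (8.122, the next 7.95), and tianeptine 3 was high for the astrocyte gene Gfap (12.078, the next 11.53). Groups of 3, agomelatine included, are too small for this rule.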

How the results depend on the processing

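Of the 164 genes examined singly, no called one changed sign under an alternative listed before the covariates were added. Among those not called, the difference from the pool turned for C3 (from -0.138 to 0.163 with tianeptine left out of the pool, and -0.399 to 0.0517 leaving out 1 animal), Mphosph8 (from 0.0312 to -0.0492 with fluoxetine left out, and -0.00061 to 0.0654 leaving out 1 animal), Slc11a1 (from -0.141 to 0.0245 with tianeptine left out) and Slc40a1 (from -0.0619 to 0.0258 with imipramine left out). Calls were lost for 60 with 1 variance weight per group, 48 with weights per array, 53, 23 and 22 without agomelatine 1, 2 and 3, 15 with only the 12 drug-treated animals fitted, 18, 10 and 16 with fluoxetine, imipramine and tianeptine left out of the pool, 2 with no filter, 3 over all probe sets, 5 without the trend, and none with the replicate block or, for the 124 genes above it, a 50th percentile filter. Equal array medians ended 5 calls (Cort, Dlg3, Gabrd, Hif3a and Ntrk3) and another quantile normalization 4. Leaving out 1 pooled animal ended from 2 (fluoxetine 1) to 11 (imipramine 1). The cause of the changes below was not tested. The count against the pool was 3437 over all probe sets (more features tested), 810 with weights per group, 997 with weights per array and 711 at a difference of at least 0.3, 1702 with only the drug-treated animals fitted, and 1332 to 2219 leaving out 1 animal. Covariates chosen after seeing the data gave 901 (array-difference position), 1250 (choroid plexus score), 992 (CA-field score) and 73 (oligodendrocyte score). Of these, 551, 1084, 703 and 18 were shared with the main fit. The values of all 4 covariates do not overlap between agomelatine and the pool, so each stands in part for the group, and 64, 256 and 8 called genes changed sign with the array, oligodendrocyte and CA-field covariates. Enpp2 and Ccn3, members of the choroid plexus and CA-field lists, did not overlap either, and scores without them were not computed. Against fluoxetine the count was 371 and 829 with weights per group and array, 2020 at adjusted p under 0.1, 710 at 0.3 and 826 to 1416 leaving out 1 animal. Against imipramine it was 1693 over all probe sets, 566 with weights per group, 1681 at 0.1, 581 at 0.3 and 453 to 1300 leaving out 1 animal. Against tianeptine it was 2257 over all probe sets, 638 and 720 with weights, 2218 at 0.1, 772 at 0.3 and 736 to 1700 leaving out 1 animal. Against the pool and every drug it was 881 over all probe sets, 223 and 366 with weights, 924 at 0.1, 308 at 0.3 and 326 to 725 leaving out 1 animal. The F test among the pooled drugs called 109 genes with weights per array and 0 leaving out any 1 animal.

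Same-numbered animals of different groups showed little shared deviation (r from -0.248 to 0.12, with 3 of 18 pairs over 0.1), and the main fit did not pair them. These values come from deviations within groups of 3 and are not independent, so they cannot exclude a weak pairing. With the replicate block 1957 genes were called against the pool, 1103, 890 and 1313 against fluoxetine, imipramine and tianeptine, and 500 against all. With 3 agomelatine animals, small differences can be missed: the smallest one called was 0.10.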
